A study of Mus musculus with 18 samples.

Results

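The 10 genes described here, Xpa, Xpc, Ddb1, Ddb2 and Ercc1 to Ercc6, encode core proteins of nucleotide excision repair and were taken by name from the 22852 genes of the count tables. The data were RNA-seq read counts of bone marrow-derived macrophages (BMDMs) from C57BL/6 mice, cultured for 7 days with conditioned medium of L929 cells, in 6 groups of 3 samples. Unstimulated cells received nothing. LPS-primed cells received lipopolysaccharide (LPS, a bacterial cell wall component sensed by Toll-like receptor 4) at 100 ng/ml for 24 h. LPS-tolerant cells were primed in the same way and then re-exposed to LPS at 10 ng/ml for 3 h in fresh medium. LPS-stimulated cells received a single dose of 10 ng/ml, which the scheme of the study places at 3 h and the labels leave without a time. In 2 further groups, carboplatin at 25 µM was added 1 h before priming of LPS-primed or of LPS-tolerant cells. The treatment note in the labels instead puts LPS before carboplatin. All cells were of 1 strain, no group received carboplatin without LPS, and the single dose differed from priming in both concentration and duration.

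Nucleotide excision repair cuts bulky, helix-distorting lesions out of DNA as a short single-stranded piece and refills the gap. Carboplatin forms such lesions, mainly intrastrand crosslinks between neighbouring purines. Lesions anywhere in the genome are found by XPC or by the UV-damage complex of DDB1 and DDB2, whereas lesions that stall RNA polymerase II are found through CSB, the product of Ercc6. The helicases XPB (Ercc3) and XPD (Ercc2) of the transcription factor TFIIH then open the DNA, XPA checks the lesion, and the nucleases XPG (Ercc5) and XPF-ERCC1 (Ercc4 and Ercc1) cut on its 3′ and 5′ sides.

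Each library held between 6869667 and 14708099 counts assigned to genes, with a median of 8986463, and all 10 genes passed the filter on low counts. Read counts of a single repair gene in a single library ran from 13 for Ddb2 to 4525 for Ddb1. The summed counts of 9 macrophage markers lay between 149110 and 309390 normalized counts. Markers of T cells and of mast cells and basophils were at 0 throughout, and those of B cells, neutrophils, dendritic cells, NK cells and erythroid cells summed to at most 12.9 and those of fibroblasts to at most 36.5. Normalized read counts are counts scaled to a common library size by the TMM method. Fold changes, standard errors (SE) and p-values came from edgeR's quasi-likelihood F test over 11305 genes in all 18 samples, with p adjusted by the Benjamini-Hochberg method over all of them. A gene is said to have changed where its adjusted p was under 0.05 in comparisons of LPS treatments or under 0.25 in comparisons of carboplatin. The study's methods call the samples of a group biological replicates, and the labels do not say which mice or cultures they came from.

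Promoter sequence is shown for 4 of the genes, because Xpa and Ercc5 were lower after the single LPS dose whereas Ercc2 and Ercc6 were not. The set of RefSeq promoters used here held 7 of the 10 genes on build GRCm38.p6 and lacked Xpc, Ddb2 and Ercc3. Xpc and Ddb2, which were also lower after the single dose, are therefore not shown. Each line holds the 250 bases before the annotated transcription start, 5′ to 3′ on the strand of the gene, and capitals mark the motif matches named after it.

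Xpa (minus strand, chr4:46196312-46196561): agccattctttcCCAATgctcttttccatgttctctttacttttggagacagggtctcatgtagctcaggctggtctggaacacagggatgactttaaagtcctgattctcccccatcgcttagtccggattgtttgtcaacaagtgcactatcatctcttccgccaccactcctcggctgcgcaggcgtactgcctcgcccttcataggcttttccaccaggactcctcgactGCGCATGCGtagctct

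Ercc5 (plus strand, chr1:44147494-44147743): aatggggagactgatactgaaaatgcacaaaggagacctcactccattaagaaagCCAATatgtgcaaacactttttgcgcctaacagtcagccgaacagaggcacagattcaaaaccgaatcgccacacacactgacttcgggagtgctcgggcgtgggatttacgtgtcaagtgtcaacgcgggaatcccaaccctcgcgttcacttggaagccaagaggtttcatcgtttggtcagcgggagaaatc

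Ercc2 (plus strand, chr7:19381767-19382016): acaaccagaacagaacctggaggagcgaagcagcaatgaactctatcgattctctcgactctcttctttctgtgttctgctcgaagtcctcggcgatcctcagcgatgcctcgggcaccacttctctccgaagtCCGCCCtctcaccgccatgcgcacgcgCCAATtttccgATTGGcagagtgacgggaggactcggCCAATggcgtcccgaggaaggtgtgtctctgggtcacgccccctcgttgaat

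Ercc6 (plus strand, chr14:32513271-32513520): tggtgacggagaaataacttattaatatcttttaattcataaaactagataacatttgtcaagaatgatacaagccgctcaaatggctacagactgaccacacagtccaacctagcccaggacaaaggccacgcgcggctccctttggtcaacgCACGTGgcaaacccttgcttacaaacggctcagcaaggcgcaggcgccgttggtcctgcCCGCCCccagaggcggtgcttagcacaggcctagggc

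Searched on both strands were the GC box GGGCGG, the CCAAT box CCAAT, the E-box CACGTG, the NRF1 core GCGCATGCG, the ETS core CCGGAAG, the letters GGGACTTTC of an NF-kB site and the cyclic AMP response element TGACGTCA. No match overlapped another in these 4 promoters. Ercc2 carried a GC box 116 bases before the start and 3 CCAAT boxes 89, 78 and 52 bases before it. Ercc6 carried a GC box at 37 bases and an E-box at 96 bases before the start. Ercc5 carried a single CCAAT box at 195 bases, and Xpa a CCAAT box at 238 bases and an NRF1 core at 16 bases. The GC box was found in 4 of the 7 promoters (Ddb1, Ercc1, Ercc2 and Ercc6) and in 32.7% of 32851 mouse promoters. The CCAAT box was found in 4 of 7 (Xpa, Ercc2, Ercc4 and Ercc5), against 33.8% of all. The NRF1 core was held by 1.45% and the E-box by 6.02% of all promoters. The other letters were in none of the 7 windows, and all promoters held them at 6.91% for the ETS core, 0.289% for the NF-kB letters and 1.55% for the cyclic AMP response element.

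The levels of the 10 genes differed widely. Per kilobase of the canonical transcript, Ddb1 had a mean level of 70.9 CPM (counts scaled to library size) over the 6 groups. DDB1 is also the adaptor of CUL4 ubiquitin ligases, which act far beyond repair. Ercc3 followed at 26.5 and Xpa at 19.6 CPM per kilobase. The canonical transcript of Xpa has 1000 bases, whereas its annotated exons together cover 12092, so its place depends on the length used. Its read counts were 74 to 292 in a library. Ercc2, Xpc, Ercc4, Ercc5, Ercc1 and Ercc6 lay between 6.52 and 3.02, and Ddb2 was lowest at 1.70. Between group means of normalized counts, Xpc spanned a 4.05-fold range, Ercc5 3.46-fold, Ddb2 2.48-fold, Ercc6 1.98-fold and Xpa 1.88-fold. The ranges of Ercc3, Ercc1, Ddb1, Ercc4 and Ercc2 were 1.17-, 1.22-, 1.23-, 1.31- and 1.54-fold.

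**Figure D1:**
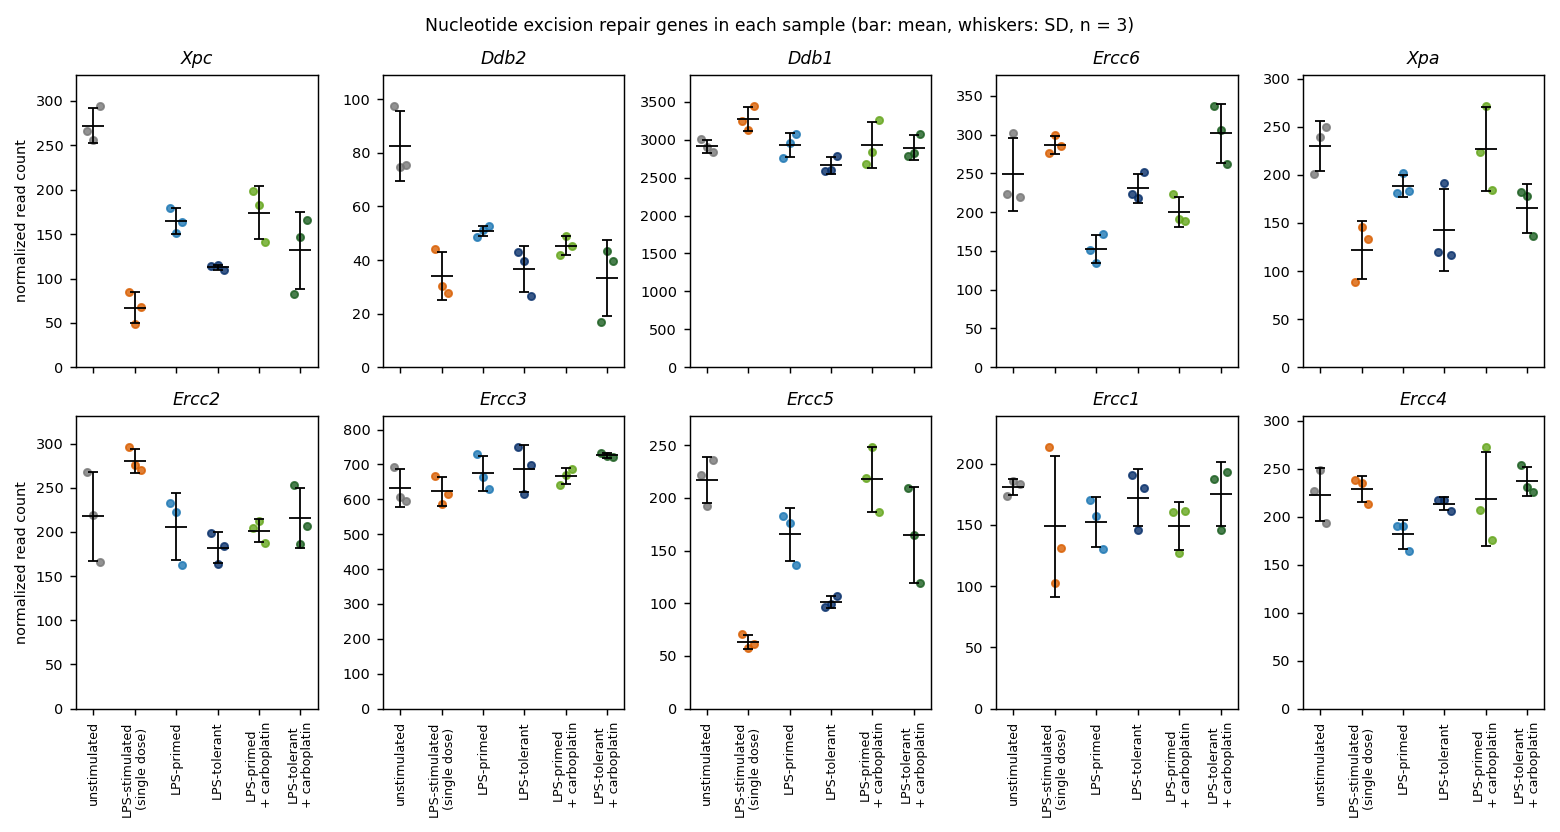
Normalized read counts (y axis, from 0) of the 10 repair genes in the 3 samples of each of 6 groups (x axis); points are samples, bars means and whiskers SD. Xpc and Ercc5 had their lowest group means in the LPS-stimulated samples, at 49.1 to 84.7 and 57.4 to 70.4, all below every unstimulated sample, whereas Ercc3 stayed between 587 and 749.6 in all 18 samples.

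The single LPS dose was followed by lower levels of 2 damage sensors, the verification factor and the 3′ nuclease. Both TFIIH helicases and the 5′ nuclease were not called in the main fit, but some of their genes were in other fits given below. Against unstimulated cells, 4 of the 10 genes fell and none rose, where 51.2% of all tested genes changed and 26.9% fell. The 4 were Xpc, Ercc5, Ddb2 and Xpa. Their unstimulated and LPS-stimulated samples did not overlap, which held in this direction for 29.6% of all tested genes. Over all genes 2749 rose and 3040 fell, and with library size as the only scaling 1847 rose and 4636 fell.

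Xpc, the initiator of repair in untranscribed DNA, was at 267, 256 and 294 normalized counts in the unstimulated samples and at 84.7, 49.1 and 68.0 in the LPS-stimulated samples. The groups lay far apart, and Xpc was 4.08-fold lower, with a log2 fold change of -2.03 (SE 0.24, adjusted p = 3.37e-06 by edgeR). Ercc5, whose product cuts on the 3′ side of the lesion, went from 222, 193 and 236 to 70.4, 57.4 and 61.1. The same-numbered pairs differed by -1.66, -1.75 and -1.95 on the log2 scale, and the fitted log2 fold change was -1.79 (SE 0.21, adjusted p = 2.75e-06), a 3.45-fold decrease. Ddb2, which recognizes UV lesions directly, went from 97.5, 74.6 and 75.4 to 44.1, 30.4 and 27.6. The groups did not overlap, and Ddb2 was 2.43-fold lower (log2 fold change -1.28, SE 0.31, adjusted p = 0.0023). Xpa went from 201, 239 and 249.9 to 88.3, 145 and 133, with every LPS-stimulated sample below every unstimulated one. It was 1.87-fold lower (log2 fold change -0.90, SE 0.23, adjusted p = 0.0035).

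Xpa and Ddb2 each overlap a protein-coding gene on the other strand in the GRCm39 annotation. So do Ddb1 (Tkfc), Ercc1 (Polr1g) and Ercc2 (Klc3, with at most 9 reads in a library). Whether counting used the strand is not given in the sources used here. Ncbp1, which overlaps Xpa, had a log2 fold change of 0.39 (SE 0.16, adjusted p = 0.051), and Acp2, which overlaps Ddb2, rose by 0.61 (SE 0.17, adjusted p = 0.0063). The calls of Xpc, Ercc5, Ddb2 and Xpa held without any 1 sample and with each other scaling, filter, tool and block tried. A limit of 2 on the absolute log2 fold change was passed by Xpc alone. In bulk samples, less RNA per cell and a different mix of cells cannot be told apart.

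The other 6 genes had no called change after the single dose. Ercc6, the sensor of stalled polymerases, was at 224, 302 and 219.9 in unstimulated and 276, 299 and 285 in LPS-stimulated samples, a log2 fold change of 0.20 (SE 0.16, adjusted p = 0.31). Ddb1, the partner of Ddb2, was at 3003, 2906 and 2832 and then at 3249, 3131 and 3445, a log2 fold change of 0.17 (SE 0.11, adjusted p = 0.21). With library size as the only scaling, Ddb1 had -0.17 and Ercc6 -0.13, so neither direction was settled. That scaling moved the median log2 fold change of all genes from -0.09 to -0.43. Ercc2, the XPD helicase, was at 268, 219 and 166 and then at 296, 276 and 270.1. All 3 LPS-stimulated samples exceeded the unstimulated ones, and its log2 fold change of 0.37 (SE 0.19) had an adjusted p of 0.11, which became 0.032 with a block for replicate number (log2 fold change 0.38). Without the first unstimulated sample it was 0.56 (adjusted p = 0.032). Ercc1, the partner of XPF, was at 174, 186 and 184 and then scattered over 214, 102 and 131. Its log2 fold change of -0.29 (SE 0.23, adjusted p = 0.30) was -0.63 without the first LPS-stimulated sample (adjusted p = 0.018). Ercc3 and Ercc4 had log2 fold changes within 0.04 of 0. With library size as the only scaling, Ercc3 (-0.36, adjusted p = 0.014 by edgeR) and Ercc1 (-0.62, adjusted p = 0.029) were called lower, which made 6 repair genes, and Ercc4 had -0.30 without a call.

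In LPS-primed cells, Xpc and Ercc6 were lower than in unstimulated cells and no repair gene was higher. Among all tested genes 25.2% changed and 13.1% fell. In 6 of the 10 genes every primed sample was below every unstimulated one, as in 21.3% of all tested genes. Ercc6 was at 151, 134 and 172 in the primed samples, against 224, 302 and 219.9 without LPS, and the groups did not overlap. It was 1.63-fold lower (log2 fold change -0.70, SE 0.17, adjusted p = 0.0043 by edgeR). Xpc was at 179.9, 152 and 163, between its unstimulated and its LPS-stimulated levels. It was 1.65-fold lower (log2 fold change -0.72, SE 0.23, adjusted p = 0.029). This call was lost, with an adjusted p between 0.056 and 0.094, without any 1 of the 3 unstimulated samples and without the primed sample of number 2 or 3, while the log2 fold change stayed between -0.79 and -0.64. Ddb2 was at 48.7, 51.3 and 52.5, below every unstimulated sample, but its log2 fold change of -0.70 (SE 0.30) had an adjusted p of 0.10. Acp2, which overlaps Ddb2 on the other strand, rose by 1.55 (SE 0.17, adjusted p = 3.56e-06 by edgeR). Ercc5 had 183, 177 and 136 and a log2 fold change of -0.39 (SE 0.20, adjusted p = 0.17). Xpa had 181, 202 and 183 and a log2 fold change of -0.29 (SE 0.23, adjusted p = 0.40). The log2 fold changes of Ddb1, Ercc1, Ercc2, Ercc3 and Ercc4 lay between -0.30 and 0.09, none of them called. With library size as the only scaling, the median log2 fold change of all genes moved from -0.02 to -0.26, and Ddb2, Ercc4 and Ercc5 then also passed the threshold as lower. Calls over all genes, 1370 higher and 1477 lower, became 932 higher and 2598 lower.

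**Figure D2:**
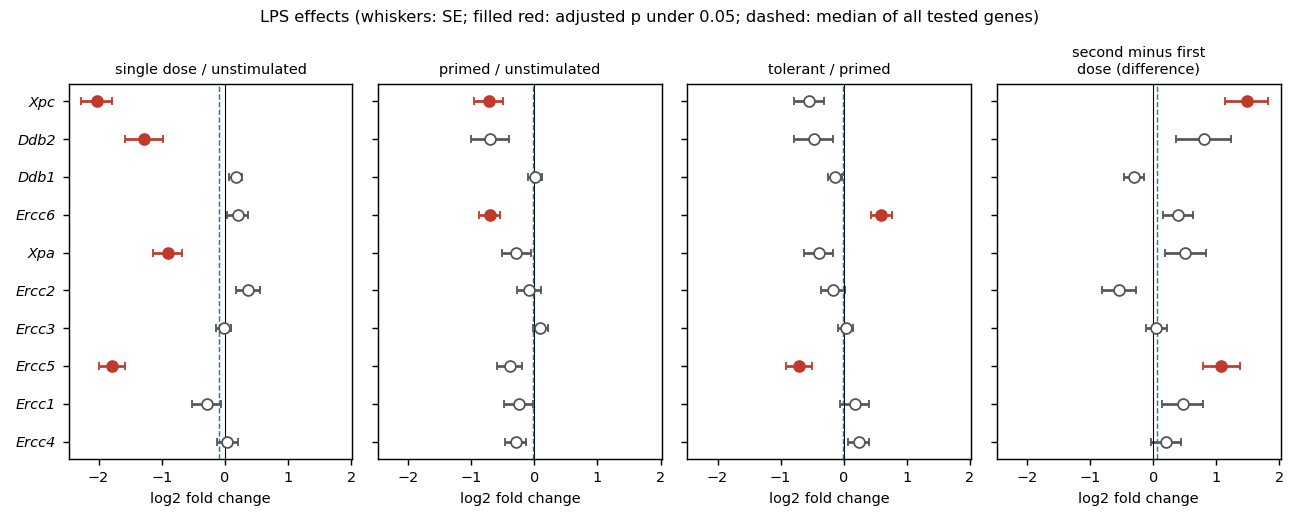
Log2 fold changes (x axis, whiskers SE) of the 10 repair genes (y axis) in 3 comparisons of LPS treatments and in the difference between the second and the first LPS dose; filled red points passed an adjusted p of 0.05 and the dashed line is the median of all tested genes. Xpc, Ddb2, Xpa and Ercc5 were lower after the single dose, at -2.03, -1.28, -0.90 and -1.79, while Ercc6 was lower after priming, at -0.70.

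After re-exposure of primed cells to LPS, Ercc5 and Ercc6 had changed in opposite directions. The LPS dose cannot be told apart from the fresh medium and the further 3 h that came with it. Among all tested genes 6.31% changed between LPS-tolerant and LPS-primed cells, 3.60% upwards and 2.71% downwards. Ercc5 went from 183, 177 and 136 in primed to 96.2, 99.3 and 107 in tolerant samples. The groups did not overlap, as also for Ercc6 and, without a call, Xpc, Ddb2 and Ercc4. How many of all tested genes did so is not given here. The log2 fold change of Ercc5 was -0.71 (SE 0.21), just past the threshold with an adjusted p of 0.04999 by edgeR. Ercc6 went from 151, 134 and 172 to 223, 218 and 252, close to its unstimulated range. Its log2 fold change was 0.60 (SE 0.17, adjusted p = 0.042). Both calls were lost when any 1 of the 6 samples was left out, at adjusted p between 0.056 and 0.15 for Ercc5 and 0.063 and 0.15 for Ercc6, with log2 fold changes of -0.83 to -0.63 and 0.52 to 0.69. Xpc was at 114, 115 and 109 in tolerant cells, below every primed sample, with a log2 fold change of -0.55 (SE 0.24, adjusted p = 0.19).

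LPS-tolerant and LPS-stimulated cells received the same 10 ng/ml dose and differed in the priming before it. Among all tested genes 34.5% changed between them, with 16.2% higher and 18.3% lower in tolerant cells. Of the 10 repair genes, 2 were higher and 2 lower. Xpc was 1.69-fold higher in tolerant cells, at 114, 115 and 109 against 84.7, 49.1 and 68.0 (log2 fold change 0.76, SE 0.24, adjusted p = 0.023 by edgeR). Ercc5 was 1.61-fold higher, at 96.2, 99.3 and 107 against 70.4, 57.4 and 61.1 (log2 fold change 0.68, SE 0.21, adjusted p = 0.019). Neither pair of groups overlapped, as also for Ddb1, Ercc2 and, without a call, Ercc6. The share of all tested genes without overlap is not given here for this comparison. Ercc2 was 1.54-fold lower, at 199, 163 and 184 against 296, 276 and 270.1 (log2 fold change -0.63, SE 0.19, adjusted p = 0.017). Ddb1 was 1.23-fold lower, at 2587, 2601 and 2791 against 3249, 3131 and 3445 (log2 fold change -0.30, SE 0.11, adjusted p = 0.042). The Ddb1 call was lost without any 1 of the 6 samples, at adjusted p between 0.055 and 0.13. The Ercc2 call was lost without the second tolerant sample (adjusted p = 0.069). For Xpc the call was lost without the tolerant sample of number 1 or 2 or the LPS-stimulated sample of number 2 or 3 (adjusted p between 0.051 and 0.12), and for Ercc5 without the tolerant sample of number 3 or the LPS-stimulated sample of number 2 or 3 (0.055 to 0.073). Xpa and Ddb2 had no called difference between the tolerant and the LPS-stimulated state, with values of 120.3, 192 and 116 and of 43.0, 39.7 and 26.8 in tolerant cells.

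The response to 10 ng/ml with priming was set against the response without it, as the difference between the tolerant-to-primed and the stimulated-to-unstimulated log2 fold changes. The tolerant-to-primed part also holds the change to fresh medium. Xpc and Ercc5 differed, both with a positive difference, against 23.8% of all tested genes, 10.5% with a positive one. For Xpc the log2 fold change was -0.55 in primed and -2.03 in unprimed cells, a difference of 1.48 (SE 0.34, adjusted p = 0.0039 by edgeR). For Ercc5 it was -0.71 and -1.79, a difference of 1.08 (SE 0.29, adjusted p = 0.012). All 3 replicate numbers gave a positive difference for both genes, as also for Xpa, Ddb2, Ercc4 and Ercc6, which were not called. The calls of Xpc and Ercc5 held without any 1 of the 12 samples involved. The differences of Ddb2 and Xpa, 0.80 (SE 0.44, adjusted p = 0.21) and 0.51 (SE 0.32, adjusted p = 0.29), did not pass. Both Xpc and Ercc5 were already lower in primed than in unstimulated cells by 0.72 and 0.39 on the log2 scale, and the change of Ercc5 was not called there.

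Carboplatin was followed by higher Ercc5 and Ercc6, and no repair gene fell. In LPS-primed cells 0 of the 10 passed the threshold by edgeR, by DESeq2 or with a block for replicate number, where 1.20% of all genes passed by edgeR, and Ercc6 alone had an unadjusted p under 0.05 (0.031). In LPS-tolerant cells only Ercc5 passed among the 10, where 1.65% of all genes changed and 0.239% rose. For the mean of both effects, Ercc5 and Ercc6 passed, where 5.95% of all genes changed and 1.55% rose. Every carboplatin-treated sample was above every untreated one for 2 of the 10 genes in primed cells, as for 5.20% of all genes, and for 3 of the 10 in tolerant cells (Ercc4, Ercc5 and Ercc6), as for 5.25% of all genes.

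Ercc5 was at 183, 177 and 136 in primed cells and at 219, 248 and 186 with carboplatin, and at 96.2, 99.3 and 107 in tolerant cells and at 209.8, 165 and 119 with carboplatin. Each carboplatin-treated group lay above its untreated group without overlap, and in tolerant cells the treated samples spread more widely than the untreated ones. The log2 fold change was 0.40 (SE 0.20, adjusted p = 0.75 by edgeR) in primed cells and 0.70 (SE 0.21, adjusted p = 0.23) in tolerant cells. The mean of both was positive in all 3 replicate numbers for Ercc5, as for Ercc6 and, without a call, Xpa, Ddb1, Ercc2 and Ercc4. For Ercc5 it was 0.55 (SE 0.14, adjusted p = 0.061 by edgeR), a 1.46-fold increase that stayed called without any 1 sample. The call in tolerant cells alone was lost without any 1 of the 3 untreated tolerant samples and without the carboplatin-treated tolerant sample of number 1 or 2, at adjusted p between 0.37 and 0.88, and the lowest log2 fold change was 0.49, without the carboplatin-treated sample of number 1.

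Ercc6 was at 151, 134 and 172 in primed cells and at 223, 191 and 188 with carboplatin, and at 223, 218 and 252 in tolerant cells and at 337, 306 and 262 with carboplatin. Again neither pair of groups overlapped. The log2 fold change was 0.39 (SE 0.17, adjusted p = 0.62) in primed and 0.38 (SE 0.16, adjusted p = 0.67) in tolerant cells, and the mean of both was 0.39 (SE 0.12, adjusted p = 0.12 by edgeR), a 1.31-fold increase. Without the second primed, the first carboplatin-treated primed, the second tolerant or the first carboplatin-treated tolerant sample, the mean was 0.35 to 0.37 with adjusted p between 0.26 and 0.29 and was not called. At an adjusted p of 0.05 neither gene passed for the mean effect by edgeR without a block, and Ercc5 passed with the replicate block (0.54, adjusted p = 0.017) and by DESeq2 (0.55, adjusted p = 0.020).

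The remaining repair genes showed no called effect of carboplatin. Ddb2 and Xpc are targets of p53 in human cells, which platinum lesions activate. Ddb2 was at 41.9, 48.9 and 45.3 in carboplatin-treated primed cells and at 17.0, 43.3 and 39.5 in carboplatin-treated tolerant cells, and the mean log2 fold change was -0.14 (SE 0.22, adjusted p = 0.90). Xpc was at 199, 183 and 141 and at 82.6, 147 and 165, with a mean log2 fold change of 0.15 (SE 0.17, adjusted p = 0.81). The carboplatin-treated tolerant sample of number 1 was the lowest of its group for both genes and the highest for Ercc5 and Ercc6. Of 18 tested p53 target genes, 5 rose with carboplatin in the mean of both effects and none fell. These 5 were Cdkn1a, Mdm2, Ccng1, Aen and Bbc3, named after their values were seen, and the median log2 fold change of the 18 was 0.33, against 0.01 over all tested genes, of which 1.55% rose. Ccng1 had the smallest p, with 0.62 (SE 0.16, adjusted p = 0.066). Ercc4, at 0.21 (SE 0.12), had an adjusted p of 0.54 by edgeR, which became 0.24 with a block for replicate number. That block called 2248 of 11305 tested genes for the mean effect, against 673 without it. The carboplatin effects in tolerant and primed cells were not shown to differ for any repair gene. For Ercc5 the difference was 0.30 (SE 0.29, adjusted p close to 1 over all genes), and no gene of 11305 passed by edgeR or DESeq2, with 131 at an unadjusted p under 0.05.

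**Figure D3:**
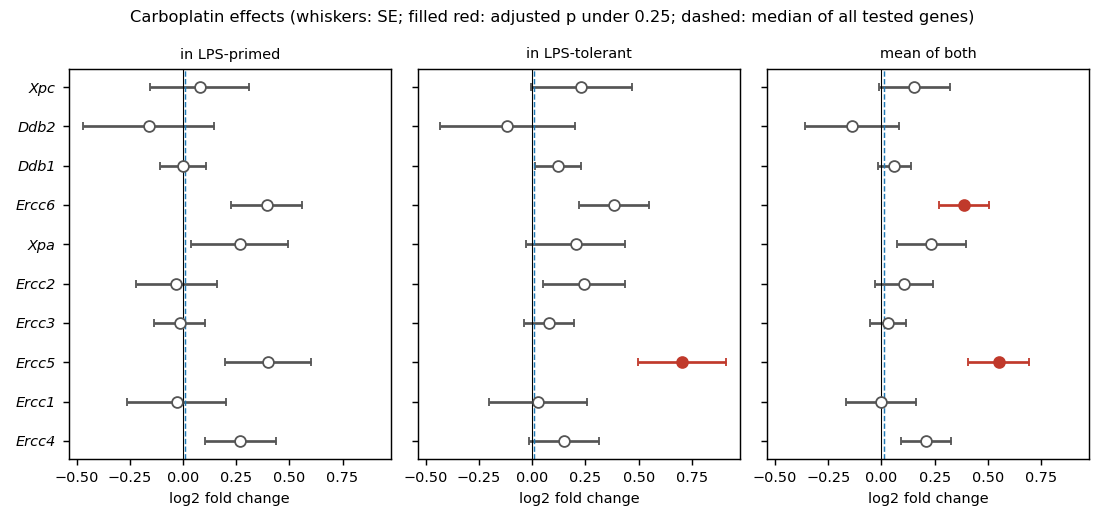
Log2 fold changes with carboplatin (x axis, whiskers SE) of the 10 repair genes (y axis) in LPS-primed cells, in LPS-tolerant cells and as the mean of both; filled red points passed an adjusted p of 0.25 and the dashed line is the median of all tested genes. Ercc5 and Ercc6 lay at 0.55 and 0.39 in the mean of both, and Ddb2 at -0.14.

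The carboplatin effect moved with the length of genes, and the repair genes were set beside it. Among genes that span over 300 kb on GRCm39, the median of the mean carboplatin effect was -1.01 (185 genes, of which 124 changed and none rose), and it was -0.21 between 100 and 300 kb. Genes of 30 to 100 kb had a median of 0.01, those of 10 to 30 kb 0.06 and shorter ones 0.04. All 10 repair genes span less than 100 kb, from 13.7 kb for Ercc2 to 67.5 kb for Ercc6 (chr14:32235451-32302947). Ercc6 is the longest of them and was among the 27 called higher of 3525 genes of 30 to 100 kb. Ercc5 spans 33.5 kb (chr1:44186888-44220420) and was in the same class.

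**Figure D4:**
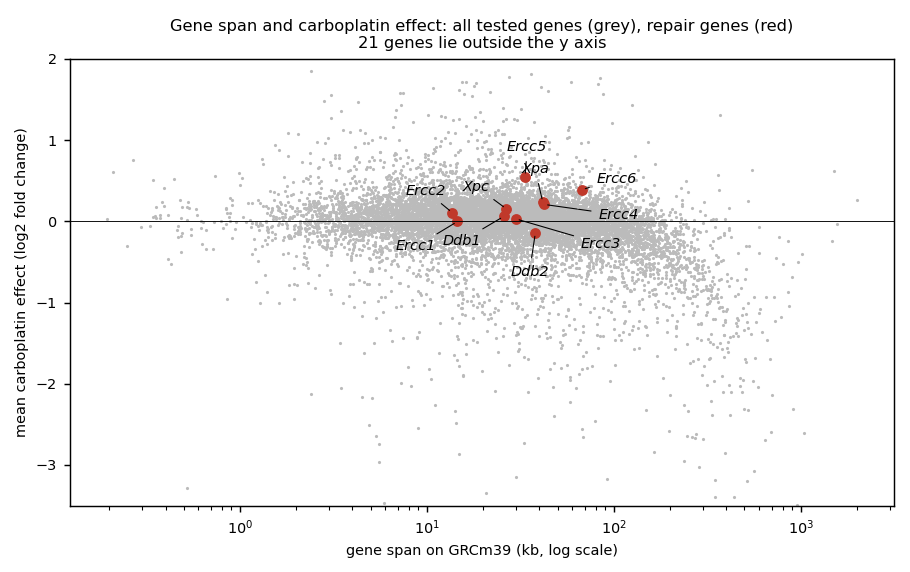
Mean carboplatin effect (y axis, log2 fold change) against gene span on GRCm39 (x axis, kb, log scale) for tested genes with a position, with the 10 repair genes in red. The repair genes span 13.7 to 67.5 kb, left of the genes over 300 kb whose median was -1.01, and Ercc5 and Ercc6 are their highest points.

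The wider pathway was described by lists of the remaining factors. The sensing step held 11 further genes, such as Rad23b, whose product stabilizes XPC, and Ercc8, which encodes the CSA ubiquitin ligase subunit. After the single LPS dose, 4 of them rose and 2 fell, named here after their values were seen, where 51.2% of all tested genes changed. Rad23b rose by 1.02 (SE 0.15, adjusted p = 3.75e-05 by edgeR), Ercc8 by 1.22, Usp7 by 0.69 and Cul4a by 0.60 on the log2 scale. Uvssa, whose product brings TFIIH to stalled polymerases, fell by 2.12 and Cul4b fell by 0.93. Xpc and Rad23b, whose products form a complex, thus moved in opposite directions. After priming, where 25.2% of all tested genes changed, only Rad23b rose among the 11, by 0.69 (SE 0.15, adjusted p = 0.0030). With carboplatin none of the 11 changed, beside 5.95% of all tested genes in the mean of both effects.

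Of 8 other TFIIH subunits, 1 rose and 2 fell after the single dose, again beside 51.2% of all tested genes. Cdk7, the kinase of TFIIH, rose by 0.89 (SE 0.15, adjusted p = 9.97e-05 by edgeR), whereas Gtf2h2 fell by 0.52 and Ccnh fell by 0.60. Gtf2h2 rose by 1.02 after priming (SE 0.16, adjusted p = 0.00013). With carboplatin, in the mean of both effects, 498 of 11305 tested genes fell. Among them, Gtf2h2 fell by 0.34 and Mnat1 fell by 0.45, the latter with the smallest p of the list (SE 0.11, adjusted p = 0.044).

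A further list held 21 genes for refilling and sealing the gap. In LPS-stimulated cells 12 of them fell and none rose, where 26.9% of all tested genes fell, with a median log2 fold change of -1.06 against -0.09 over all tested genes. Rfc1, the large subunit of the clamp loader, fell by 1.82 (SE 0.20, adjusted p = 9.42e-07 by edgeR), and Polk, a repair polymerase, fell by 1.94 (SE 0.31). In primed cells 5 fell and none rose, where 13.1% of all tested genes fell, with a median of -0.53. Between tolerant and primed cells, where 6.31% of all tested genes changed, Pcna rose by 0.98 and Rpa2 fell by 1.09. Pole, a catalytic polymerase subunit, fell by 2.03 in primed against unstimulated cells (SE 0.50, adjusted p = 0.0056 by edgeR). Most of these genes also serve replication. Of 24 proliferation genes, 8 fell after the single dose (median -0.72), where 26.9% of all tested genes fell. After priming 20 of the 24 fell (median -2.47), where 13.1% of all tested genes fell. The part of cell division in the list was not tested. In the comparison of the second with the first dose, 3 of the 21 differed, beside 23.8% of all tested genes, with a difference of 1.11 for Pcna, 1.36 for Rfc1 and 1.67 for Polk. With carboplatin, 2 of the 21 fell in the mean of both effects, in that Pole fell by 1.56 and Rfc5 fell by 0.80. Of the 24 proliferation genes 16 fell, with a median of -0.99. Over all tested genes, 498 of 11305 fell in the mean of both effects.

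**Figure D5:**
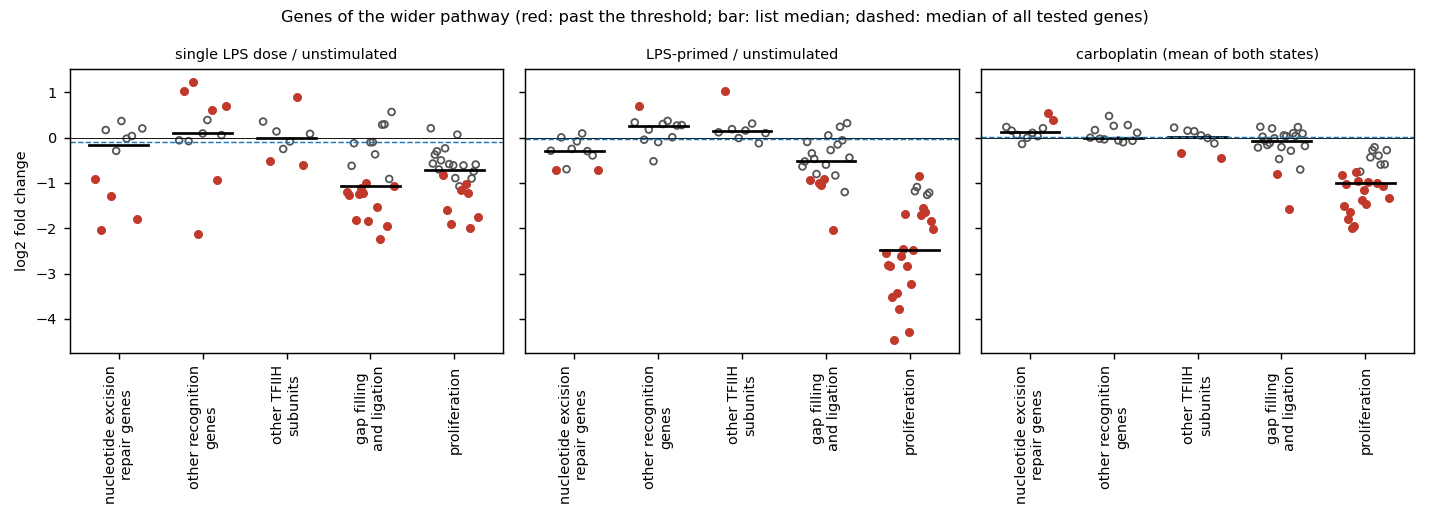
Log2 fold changes (y axis) of the 10 repair genes and of the other genes for sensing, TFIIH, gap filling and proliferation (x axis, 1 point a gene) after the single LPS dose, after priming and with carboplatin; red points passed the threshold, bars are list medians and the dashed line is the median of all tested genes. The gap filling genes had a median of -1.06 after the single dose, and the proliferation genes -2.47 after priming.

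Xpc and Ercc5 varied most between group means, and the genes whose log2 CPM followed theirs most closely over the 18 samples were found by Pearson's r. For Xpc these were Traf3ip3 (r = 0.946), Tmem273 (0.944), Zrsr1 (0.938), Lpar5 (0.934) and Rps6ka1 (0.927). For Ercc5 they were Fam160a2 (r = 0.932), Tmem140 (0.929), Acp6 (0.922), Hectd3 (0.919) and Mink1 (0.919). The 5 closest genes of Xpc and the 5 of Ercc5 had no gene in common, although Xpc and Ercc5 themselves had r = 0.805 over the 18 samples. The samples share libraries between genes, so that these values are a description.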

How the data were processed

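RNA-seq of 18 BMDM samples was analysed from read counts per gene. Per the labels and the study's methods, the authors extracted RNA with Trizol and a Direct-zol kit, made Illumina TruSeq libraries, aligned reads with HISAT2 to GRCm39 and deposited raw HTSeq counts per gene. Versions, annotation and strand setting are not given in the sources used here. Between 41.5% and 46.9% of HTSeq records per library carried no gene and were left out of library sizes. The table held 22852 genes, of which 15486 had a count.

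Counts were tested with edgeR 4.0.16 in R 4.3.3 (TMM, filterByExpr with a minimum count of 10, a quasi-likelihood F test with 1 mean per group over all 18 samples). Gene positions and canonical transcript lengths came from the GENCODE annotation of GRCm39, matched by symbol, and 97.3% of tested genes had a position. The study's thresholds on adjusted p were used without its fold limit. The code was tested on simulated counts. Samples with the same replicate number in the labels deviated together in every comparison of 2 groups (lowest correlation 0.183). The labels do not say what the numbers stand for. The main fit left them out, and a block for replicate number was an alternative. Alternatives were DESeq2 1.42.0, DESeq2 size factors, library size alone, no filter, a replicate block, only the groups compared, a limit of 2 on the absolute log2 fold change, an adjusted p of 0.05 for carboplatin, and leaving out each sample. All 10 repair genes are named, and of other lists the gene with the smallest p, those in counts of 5 or fewer, and the 5 genes most like the most variable members. Members and lists were chosen with earlier results of these data known. No replicate pair was alike within sampling noise. Counting error alone limits the lowest values, at 13 reads for Ddb2.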

Additional observations from a re-analysis of the deposited data

Results flagged for a closer look

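By a test of the difference itself, the response to LPS at 10 ng/ml differed with priming for 2 of the 10 repair genes. The rate over all tested genes was 23.8%, so the repair genes did not stand out by their number of differing genes. In primed cells this dose came with fresh medium. For Xpc the log2 fold change was -0.55 with and -2.03 without priming, a difference of 1.48 (SE 0.34, adjusted p = 0.0039 by edgeR), positive in all 3 replicate numbers. For Ercc5 it was -0.71 with and -1.79 without priming, a difference of 1.08 (SE 0.29, adjusted p = 0.012), also positive in all 3. Without a call, Xpa, Ddb2, Ercc4 and Ercc6 were positive in all 3 as well. Over all tested genes, 10.5% differed with a positive difference.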

How the results depend on the processing

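Of 1260 fits of the 10 genes under other settings, 1128 kept direction and call, 53 lost the call, 12 gained one and 67 changed sign. Only results called in the main fit could lose a call, and most of the 10 genes were not called in a given comparison. Of the lost calls, 18 were in tolerant against primed cells, 19 in tolerant against stimulated cells and 7 with carboplatin in tolerant cells. Another 5 were after priming and 4 in the mean carboplatin effect. With the replicate block, Ercc2 was called after the single dose and Ercc4 for the mean carboplatin effect (0.21, adjusted p = 0.24), Ercc5 in tolerant cells had an adjusted p of 0.084, and no other call of a repair gene changed. The block called 4367 genes in primed against unstimulated cells (2847 without it), 2034 in tolerant against primed cells (713), 4091 for the second against the first dose (2691), 890 and 784 with carboplatin in primed and tolerant cells (136 and 187) and 2248 for the mean effect (673). The fold limit left Xpc alone after the single dose and otherwise 0 repair genes, and it left 845, 1352, 77, 909, 905, 30, 44 and 63 genes in the order primed, single dose, tolerant against primed, tolerant against stimulated, second against first dose, carboplatin in primed, in tolerant and mean. At an adjusted p of 0.05, carboplatin changed 42, 48 and 225 genes, and 0 repair genes, while Ercc5 passed for the mean with the block (adjusted p = 0.017) or DESeq2 (0.020). Library size alone called 6 repair genes after the single dose (adding Ercc1 and Ercc3, the latter at -0.36), 5 after priming and 1 in tolerant against primed cells, and DESeq2 size factors 1 in the latter. Library size alone moved higher against lower calls from 407 and 306 to 296 and 476 in tolerant against primed cells, from 1190 and 1501 to 1862 and 1078 for the second against the first dose, from 27 and 160 to 38 and 111 with carboplatin in tolerant cells and from 175 and 498 to 344 and 438 for the mean. With no filter, 0 were called in tolerant against primed cells and 0 with carboplatin in tolerant cells. With only the groups compared, these were 0 and 0 (454 and 82 genes), and 1 in tolerant against stimulated cells. DESeq2 called 1127 genes in tolerant against primed cells, and 307 and 318 with carboplatin. Leaving out 1 sample at a time gave 1 to 2 repair genes of 2252 to 2531 genes after priming, 4 to 5 of 4911 to 5859 after the single dose, 0 to 0 of 330 to 506 in tolerant against primed cells, 1 to 4 of 3216 to 3924 in tolerant against stimulated cells, 2 to 3 of 2183 to 2967 for the second against the first dose, 0 to 0 of 45 to 152, 0 to 1 of 61 to 231 and 1 to 2 of 461 to 799 with carboplatin in primed, in tolerant and for the mean, and 0 of 0 for the difference of the carboplatin effects. Signs changed for Ercc6 after the single dose with library size alone (-0.13), for Ddb1 there (-0.17), for Ercc3 there (0.0112 with DESeq2 size factors, 0.0100 with DESeq2, 0.0423 with only the groups compared, -0.0711 to 0.0696 without 1 sample) and Ercc4 (-0.30 with library size alone, -0.0325 to 0.147 without 1 sample). Without 1 sample, they also changed for Xpc with carboplatin in primed cells (-0.0239 to 0.22). The same held for Ddb2 with carboplatin in tolerant cells (-0.34 to 0.18) and in the mean (-0.25 to 0.0101). Xpa in tolerant against stimulated cells ran from -0.0539 to 0.369. These are examples, and signs of other repair genes near 0 changed too. The cause was not tested. The lowest library had 6869667 counts, and Ddb2, with 13 to 102 reads, had SEs near 0.3 in comparisons of 2 groups.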
